A study of Mus musculus with 2 samples.

Results

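The cells described here are lung capillary endothelial cells in which the UMIs (unique molecular identifiers, the counted transcript molecules) of Inhbb and Adamts9 sum to at least 2. They were taken from droplet single-cell RNA libraries of C57BL/6 mouse lung labelled with acute lung injury, 1 library from a p47phox-KI source (KI) and 1 from a wild-type source (WT). What was knocked in, the agent and time of injury, the number of animals, their age and sex, and the sort gate applied after staining for viability and the leukocyte antigen CD45.2 are not given in the sources used here. The injury label applies to both groups, so no library stands for uninjured lung. The cells were chosen by their raw UMIs, a readout of the same libraries: at least 200 detected genes and at most 10% mitochondrial UMIs, at least 3 UMIs of the endothelial genes Cldn5, Cdh5 and Pecam1, at most 1 of the collagen genes Col1a2 and Col3a1, and none of Epcam or Ptprc. A general capillary signal was then asked for, with at least 3 UMIs of Plvap and Gpihbp1 and more of these than of the aerocyte genes Car4, Ednrb and Fibin, at most 1 of the arterial genes Gja5 and Bmx, and at most 1 of the venous gene Vwf.

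This gate held 1253 KI and 1286 WT cells. Of these, 374 KI and 547 WT cells reached an Inhbb and Adamts9 sum of at least 2, 921 cells in all out of 19593 barcodes, and are called Inhbb/Adamts9-positive cells below. The gated cells with a sum of 0, 563 in KI and 440 in WT, served as comparison cells. Those with a sum of 1, 316 in KI and 299 in WT, were kept apart. The Inhbb/Adamts9-positive cells had a median of 5466 UMIs in KI and 4549 in WT, and the comparison cells had 3623 in KI and 3142.5 in WT. Levels are therefore given as CPM, the UMIs of a gene scaled by all UMIs of a cell group. The libraries shared 30 barcode sequences, none of them among the Inhbb/Adamts9-positive cells. With 1 library a group no test over samples was possible, and every interval in brackets is a 95% interval that covers counting error only. A difference between KI and WT cannot be told apart from a difference between 2 library preparations.

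The lung capillary bed holds general capillary cells, which can divide and replace lost endothelium, and aerocytes, which lie against the alveolar epithelium and serve gas exchange. Inhbb encodes the beta B subunit of activins and inhibins, secreted dimers of the TGF-beta family, and activins signal through receptor kinases to SMAD2 and SMAD3. Adamts9 encodes a secreted metalloprotease that cleaves versican and other matrix proteoglycans and is known for a role in vessels. Of the genes named with them as markers of an activated capillary state, Akap12 encodes a scaffold that holds protein kinases at the membrane, Ackr3 a receptor that removes the chemokine CXCL12, and Ndrg1 a protein induced by hypoxia and cell stress, while Tmem252 encodes a little-studied transmembrane protein. Inhbb lies at chr1:119415465-119422248 on the minus strand and Adamts9 at chr6:92772699-92943492 on the minus strand of GRCm38.

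Because Inhbb and Adamts9 chose the cells, their levels there are a description. In the Inhbb/Adamts9-positive cells Inhbb was at 189 CPM in KI and 327 CPM in WT, and Adamts9 was at 449 CPM in KI and 562 CPM in WT. Only Inhbb was detected in 49 KI and 71 WT cells, only Adamts9 in 177 KI and 207 WT cells, and both in 148 KI cells (39.6%) and 269 WT cells (49.2%). Adamts9 alone thus brought in more of the cells than Inhbb alone in both libraries. Just outside the threshold, cells with a sum of 1 had Tmem252 at 560 CPM in KI and 1342 CPM in WT, and just inside, cells with a sum of 2 had 579 CPM in KI and 1364 CPM in WT, so the threshold does not mark a step in this marker.

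Choosing cells by either gene and measuring the other separates the choice from the readout. Gated cells with at least 2 Inhbb UMIs had Adamts9 at 300 CPM in KI, against 198 CPM in KI cells without Inhbb (log2 ratio 0.60 [0.37, 0.82]). In WT the same choice gave Adamts9 at 413 CPM against 270 CPM (0.61 [0.44, 0.78]). Cells with at least 2 Adamts9 UMIs had Inhbb at 112 CPM against 78.2 CPM in KI (0.52 [0.23, 0.81]) and at 236 CPM against 131 CPM in WT (0.85 [0.63, 1.07]). The genes were found together in the same cells in both libraries, with ratios below 2-fold.

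The endothelial and capillary character of the cells was checked on genes outside the rule. Kit, a general capillary marker, was at 339 CPM in Inhbb/Adamts9-positive and 327 CPM in comparison cells of KI, and at 303 and 270 CPM in WT. Hpgd, which breaks down prostaglandins and is high in general capillary cells, was at 3220 against 3974 CPM in KI (-0.30 [-0.35, -0.26]) and 2325 against 2992 CPM in WT (-0.36 [-0.42, -0.31]). Of 11 measured general capillary genes, 0 differed by 2-fold in both libraries, and their median log2 ratio was -0.07 in KI and 0.07 in WT, beside -0.03 and -0.04 for all 4321 genes measured. Lyve1, known as a lymphatic marker, was at 4143 CPM in KI and 3867 CPM in WT Inhbb/Adamts9-positive cells, but was at 3942 and 3289 CPM in the comparison cells, and the lymphatic regulator Prox1 had 5 UMIs in KI and 1 in WT Inhbb/Adamts9-positive cells.

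The markers Tmem252, Akap12, Ackr3 and Ndrg1 were not used by the rule and were higher in Inhbb/Adamts9-positive than in comparison cells of both libraries. Tmem252 was at 835 against 521 CPM in KI (0.68 [0.58, 0.79]) and at 1896 against 845 CPM in WT (1.17 [1.08, 1.25]). Akap12 was at 576 against 302 CPM in KI (0.93 [0.80, 1.07]) and at 1172 against 524 CPM in WT (1.16 [1.05, 1.27]). The log2 ratio of Ackr3 was 0.38 [0.18, 0.59] in KI and 0.78 [0.61, 0.94] in WT, and that of Ndrg1 was 0.29 [0.05, 0.53] in KI and 0.46 [0.24, 0.68] in WT. None of them reached 2-fold in KI, while Tmem252 and Akap12 did in WT. Their order was not one of on and off: after each cell was thinned to 2000 UMIs, Tmem252 was detected in 57.8% of Inhbb/Adamts9-positive and 49.9% of comparison cells of KI, and in 76.4% and 58.0% of those of WT, beside 1.27% of KI and 4.24% of WT cells of the fibroblast gate. Without thinning these shares were 79.7% and 60.0% in KI, and 87.2% and 69.1% in WT.

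All 4 markers were highest in the cells with an Inhbb and Adamts9 sum of 5 or more, 93 in KI (24.9% of the Inhbb/Adamts9-positive cells) and 162 in WT (29.6%). Akap12 reached 1054 CPM in these KI cells, against 383 CPM at a sum of 3 to 4 and 446 CPM at a sum of 2. In WT it reached 1822 CPM, against 807 CPM at a sum of 3 to 4 and 871 CPM at a sum of 2. Tmem252 reached 1353 CPM in KI and 2801 CPM in WT, against 758 and 1496 CPM at a sum of 3 to 4. Most of the difference from the comparison cells thus lay in the cells with the highest sums. Kit showed no such order.

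**Figure D1:**
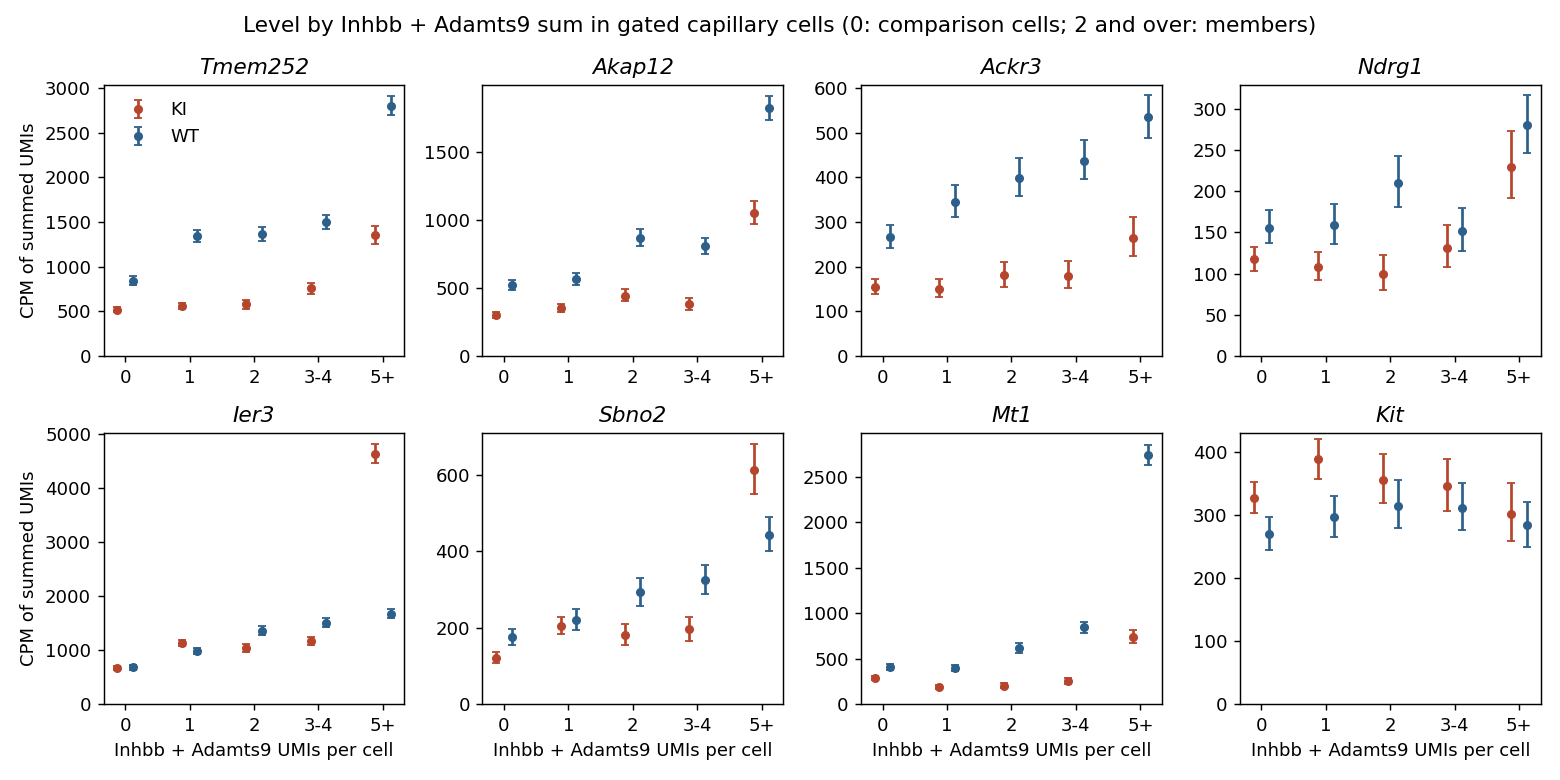
Level of 8 genes (CPM of summed UMIs, linear axes from 0) in gated capillary cells by their Inhbb and Adamts9 UMI sum, KI red and left, WT blue and right, with 95% Poisson intervals for counting error. The class of 5 or more stands above the others for Tmem252 (1353 CPM in KI, 2801 CPM in WT), Akap12, Sbno2 and Mt1, and for Ier3 in KI (4639 CPM), while Kit stays between 270 and 388 CPM.

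The pair of genes was not particular to the capillary gate within the endothelium. Cells of the venous gate, which took the same endothelial criteria and at least 2 Vwf UMIs, had Inhbb at 96.2 CPM in KI and 198 CPM in WT, and Adamts9 at 185 CPM in KI and 317 CPM in WT. Over all cells of the capillary gate Inhbb was at 88.3 CPM in KI and 182 CPM in WT, and Adamts9 at 209 CPM in KI and 321 CPM in WT. Aerocytes were low in both genes, with Inhbb at 4.71 CPM in KI and 11.003 CPM in WT and Adamts9 at 25.5 CPM in KI and 40.8 CPM in WT. Tmem252 followed the same order, at 690 CPM in KI and 1671 CPM in WT cells of the venous gate but 47.1 CPM in KI and 69.9 CPM in WT aerocytes. Akap12 set aerocytes less apart, at 226 CPM in KI and 349 CPM in WT. Ackr3 in the venous gate was at 262 CPM in KI and 458 CPM in WT, beside 202 and 458 CPM in the Inhbb/Adamts9-positive cells. Ndrg1 in the venous gate was at 132 CPM in KI and 149 CPM in WT, beside 144 and 214 CPM. Cells of the fibroblast gate held Adamts9 at 76.0 CPM in KI and 64.8 CPM in WT, and Inhbb at 2.22 and 2.26 CPM.

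At a fixed depth of 2000 UMIs, 13.0% [11.1, 15.2] of KI and 25.2% [22.6, 27.9] of WT cells of the capillary gate held a sum of at least 2. The share in the venous gate was 13.4% [10.6, 16.7] in KI and 25.03% [22.2, 28.1] in WT, so the 2 gates did not differ beyond counting error within either library. The venous gate did not exclude general capillary cells, and Kit was at 306 CPM in KI and 256 CPM in WT there. In aerocytes Kit was at 19.0 CPM in KI and 16.7 CPM in WT. The venous gate is therefore not shown to be a separate vessel type. The share in aerocytes was 0.440% [0.162, 0.956] in KI and 1.43% [0.906, 2.13] in WT. In the leukocyte gate the share was 0 of 56 KI and 0 of 87 WT cells, with upper bounds of 6.38% and 4.15%. Thinning left out 170 KI and 199 WT cells of the capillary gate that were shallower than this depth; without thinning the shares were 29.8% in KI and 42.5% in WT for the capillary gate, and 35.3% and 49.5% for the venous gate.

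**Figure D2:**
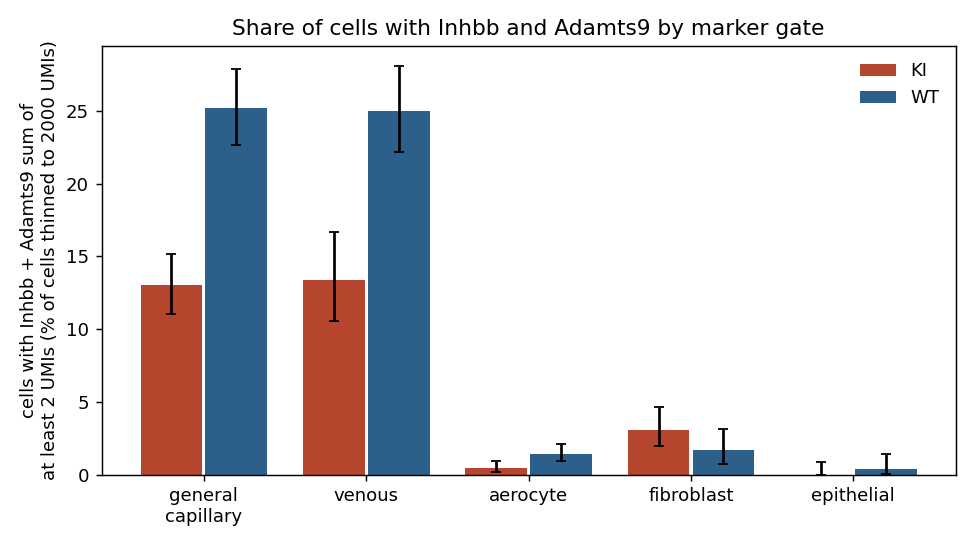
Share of cells with an Inhbb and Adamts9 sum of at least 2 UMIs after thinning each cell to 2000 UMIs (percent, linear axis from 0), by marker gate, KI left in red and WT right in blue, with exact Clopper-Pearson 95% intervals. The capillary and venous bars are level within each library, at 13.0% and 13.4% in KI and 25.2% and 25.03% in WT, and the aerocyte bars are at 0.440% and 1.43%.

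The KI library had a smaller share of these cells in the capillary gate than the WT library. The share was 29.8% [27.3, 32.5] in KI and 42.5% [39.8, 45.3] in WT, a log2 ratio of -0.51 [-0.66, -0.36]. When the whole rule was applied to cells thinned to 2000 UMIs it was 12.8% [10.96, 14.7] in KI and 25.3% [23.1, 27.7] in WT, a log2 ratio of -0.99 [-1.24, -0.74], and KI cells were deeper than WT cells before thinning. Since the rule counts UMIs of Inhbb and Adamts9, the share and the level of the genes are the same measurement: over the gate the log2 ratio of KI over WT was -1.04 [-1.20, -0.89] for Inhbb and -0.62 [-0.73, -0.51] for Adamts9. Of all kept barcodes the cells made up 5.22% in KI and 6.50% in WT, shares that also depend on the sort.

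Across all genes, 8 of the 4321 measured (0.185%) were at least 2-fold higher in Inhbb/Adamts9-positive than in comparison cells of both libraries, and 0 (0%) were at least 2-fold lower in both. Within 1 library, 34 genes (0.787%) were higher and 2 (0.0463%) lower by 2-fold in KI, and 18 (0.417%) were higher and 10 (0.231%) lower in WT. The genes that chose the cells were left out of these counts. The 8 genes were Fabp4, Bcl3, Ier3, Hmox1, Grrp1, Bhlhe40, Lrg1 and Sbno2. None of the 8 stayed past 2-fold in both libraries under every alternative tried. Ratios given after thinning come from the rule applied anew to thinned cells, with 160 KI and 347 WT Inhbb/Adamts9-positive cells. Detection shares at 2000 UMIs keep the cells chosen before thinning. In WT, Lrg1 was at 0.46 with a mitochondrial limit of 5%, Ier3 at 0.75 after thinning, and Grrp1 and Bhlhe40 at 0.93 and 0.95 with the mitochondrial limit of 5%. With all other gated cells for comparison, Sbno2 was at 0.92 in KI and 0.87 in WT. Bcl3 was at 0.90 in KI as a mean of per-cell CPM.

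Ier3, an immediate-early gene that modulates survival signalling, had the most UMIs of the 8. It was at 1989 CPM in Inhbb/Adamts9-positive against 674 CPM in comparison cells of KI (1.56 [1.48, 1.65]) and at 1519 against 685 CPM in WT (1.15 [1.05, 1.25]). Thus the comparison cells of the 2 libraries were level for Ier3, and the positive cells were above them in both. Sbno2, a transcriptional co-regulator downstream of interleukin-10 and STAT3, was at 294 against 122 CPM in KI (1.27 [1.06, 1.48]) and 354 against 175 CPM in WT (1.02 [0.82, 1.22]). Lrg1, a secreted glycoprotein that alters TGF-beta signalling in endothelium, was at 132 against 44.9 CPM in KI (1.55 [1.22, 1.90]) and 133 against 64.7 CPM in WT (1.03 [0.72, 1.37]). Bcl3, a nuclear IkB protein, was at 49.6 against 21.3 CPM in KI and 82.1 against 31.7 CPM in WT. The repressor Bhlhe40 was at 97.9 against 47.2 CPM in KI and 115 against 51.1 CPM in WT, and Grrp1 was at 148 against 70.8 CPM in KI and 174 against 77.6 CPM in WT. The 5 highest cells held from 7.93% of the UMIs of these genes (Sbno2 in WT) to 37.2% (Lrg1 in KI).

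Fabp4 and Hmox1 rested on few cells. Fabp4, a lipid chaperone, was detected in 17 KI and 12 WT Inhbb/Adamts9-positive cells, and 5 cells held 94.5% of its UMIs in KI and 96.2% in WT. In KI the 8 cells with 5 or more Fabp4 UMIs also held 168 of the 173 UMIs of Ccl21a, a chemokine of lymphatic endothelium, and 60 of the 62 UMIs of Rbp7. Hmox1, which degrades haem, was at 60.6 against 28.6 CPM in KI and 146 against 27.8 CPM in WT, and 5 cells held 59.4% of its UMIs in KI and 52.9% in WT. With the 5 highest cells of each cell group left out gene by gene, the log2 ratio of Fabp4 was 2.87 in KI but 0.29 in WT, that of Hmox1 was 0.06 in KI and 1.63 in WT, and that of Ier3 was 1.64 in KI and 1.26 in WT.

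Further genes of the same kind lay just short of 2-fold in WT. Trib1, a pseudokinase that steers C/EBP proteins to degradation, had a log2 ratio of 1.22 [0.70, 1.79] in KI and 1.00 [0.58, 1.45] in WT, just under the limit, and Fosl2, a subunit of AP-1, had 1.50 [1.07, 1.98] in KI and 0.99 [0.59, 1.41] in WT. Litaf, a regulator of lysosomal trafficking, was at 194 against 84.4 CPM in KI and 335 against 177 CPM in WT. Apold1, an early response gene of endothelium, had a log2 ratio of 1.73 in KI and 0.85 in WT. Other genes among the 20 highest by the lower of both libraries' ratios were Pde12, Akap12, Pvr, Igfbp3, Tnfaip3, Tnfrsf12a and Gda, with log2 ratios between 0.69 (Gda in WT) and 1.96 (Igfbp3 in WT, with 70.7% of its UMIs in 5 cells). Tnfaip3, which encodes the NF-kB inhibitor A20, was at 56.7 against 30.4 CPM in KI and 63.7 against 37.5 CPM in WT.

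**Figure D3:**
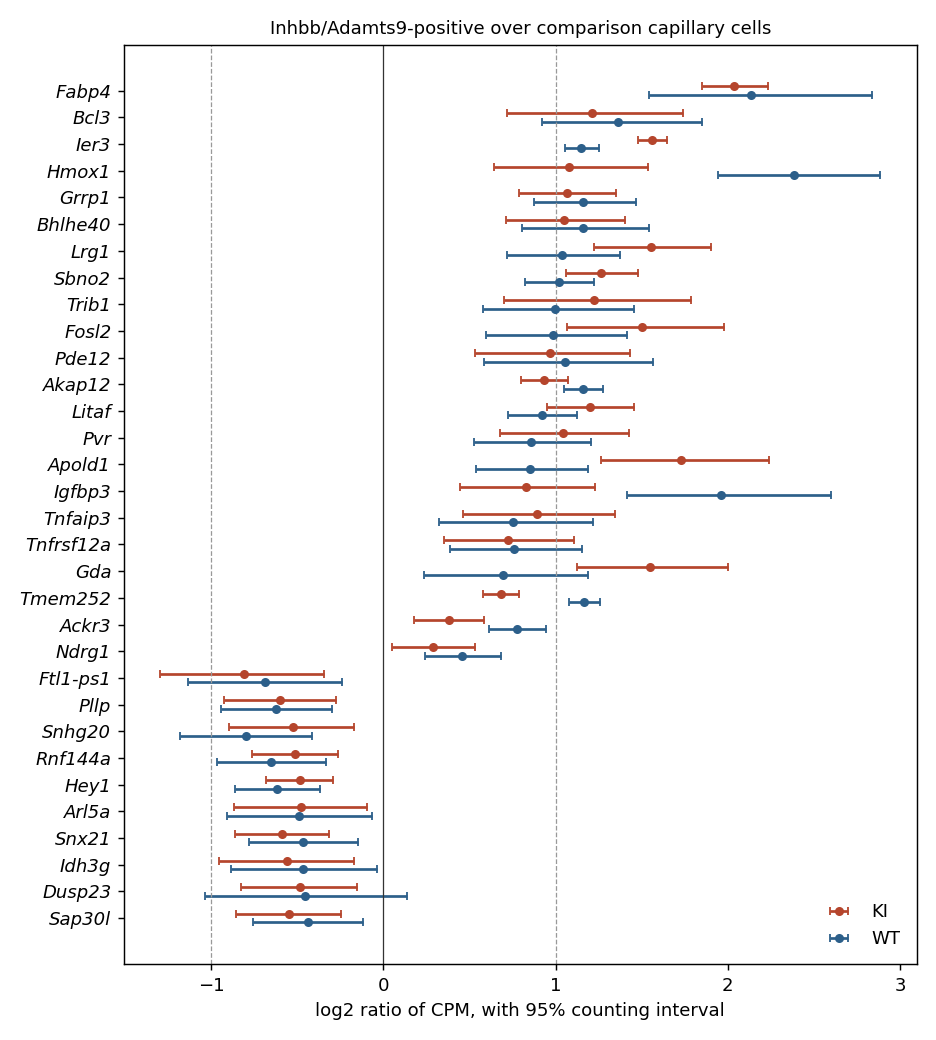
Log2 ratio of CPM in Inhbb/Adamts9-positive over comparison cells (horizontal axis) in KI (red, upper) and WT (blue, lower), with 95% counting intervals, for 19 of the 20 highest genes, the markers Tmem252, Ackr3 and Ndrg1, and the 10 lowest genes. Dashed lines mark 2-fold. No gene at the lower end reaches 2-fold, and Hey1 stands at -0.49 in KI and -0.62 in WT.

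At the lower end the ratios were small. Hey1, a transcriptional repressor downstream of Notch, was at 170 against 238 CPM in KI (-0.49 [-0.68, -0.30]) and 110 against 169 CPM in WT (-0.62 [-0.86, -0.37]). Pllp, a membrane proteolipid, was at 59.3 against 89.9 CPM in KI and 65.6 against 101 CPM in WT. The others among the 10 lowest were Ftl1-ps1, a ferritin pseudogene whose reads may come from Ftl1, Snhg20, Rnf144a, Arl5a, Snx21, Idh3g, Dusp23 and Sap30l. Of 11 measured Notch genes, 0 were 2-fold lower in both libraries.

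Gene lists gave the following counts beside the 8 of 4321 for all genes. In the list of immediate-early genes, which are also induced by enzymatic tissue digestion, 1 of 20 measured (Ier3) was 2-fold higher in both libraries, and the median log2 ratio was 0.50 in KI and 0.36 in WT, against -0.03 and -0.04 for all genes. Egr1 was at 568 against 354 CPM in KI and 408 against 219 CPM in WT, Ier5 had a log2 ratio of 0.59 in both, and Fos had 0.46 in KI and -0.16 in WT. Of 11 NF-kB targets, 1 (Bcl3) was 2-fold higher in both, with medians of 0.26 in KI and 0.09 in WT. Nfkbia, the most abundant of them, had log2 ratios of 0.19 and 0.09. In the list of heat shock genes, 0 of 17 were 2-fold higher or lower in both, with medians of 0.17 in KI and -0.28 in WT. Whether digestion moved with the choice of cells was not tested.

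In the leukocyte adhesion list, Icam1 was at 951 against 388 CPM in KI (1.29 [1.18, 1.41]) and 661 against 527 CPM in WT (0.33 [0.21, 0.45]), and 0 of 6 measured genes were 2-fold higher in both libraries. Aerocytes held Icam1 at 1036 CPM in KI and 1102 CPM in WT, above the Inhbb/Adamts9-positive cells of both libraries. Neurl3 and Sox11, markers of an inflamed capillary state, summed to at least 2 UMIs in 32.6% [27.9, 37.6] of Inhbb/Adamts9-positive and 16.3% [13.4, 19.7] of comparison cells of KI, and in 17.6% [14.5, 21.0] and 11.1% [8.35, 14.5] of those of WT. The cells with these markers were thus a minority of the Inhbb/Adamts9-positive cells in both libraries. The gap in depth between the cell groups bears on these shares, and Neurl3 in CPM had log2 ratios of 0.85 [0.60, 1.12] in KI and 0.40 [0.06, 0.76] in WT.

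Lists tied to the function of the chosen genes followed. Of 21 measured genes of the activin and TGF-beta pathway, 0 were 2-fold higher or lower in both, with medians of -0.20 in KI and -0.03 in WT. Among genes of the wider TGF-beta family, the type I receptor Acvrl1 was at 785 against 933 CPM in KI and 894 against 1009 CPM in WT. The co-receptor Eng was at 1168 against 1311 CPM in KI and 1465 against 1530 CPM in WT. The inhibitory Smad7 was at 326 against 374 CPM in KI and 226 against 257 CPM in WT. Of 23 angiogenic tip cell genes, 0 were 2-fold higher in both, but Plaur, the urokinase receptor, was at 227 against 145 CPM in KI (0.64 [0.44, 0.85]) and 455 against 212 CPM in WT (1.10 [0.93, 1.28]). Of 22 hypoxia and glycolysis genes, 0 were 2-fold higher in both, with medians of -0.11 in KI and 0.03 in WT; Vegfa had log2 ratios of 0.02 and -0.15, and Pfkfb3, which drives glycolysis, had 0.48 [0.24, 0.71] in KI and 0.87 [0.65, 1.11] in WT. Of the ADAMTS metalloprotease list 2 genes were measured, with medians of 0.59 in KI and 0.37 in WT and 0 called. Of these Adamts1, a related metalloprotease, was at 167 against 89.0 CPM in KI (0.91 [0.66, 1.16]) and 302 against 189 CPM in WT (0.67 [0.48, 0.87]).

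Several of the leading genes belong to the response to interleukin-6 family cytokines through STAT3, so a list of such genes was assembled after the values were seen and is a description only. Of its 22 measured genes, 3 (Bcl3, Lrg1 and Sbno2) were 2-fold higher in both libraries, with the alternatives named above ending each of these calls, and the median log2 ratio was 0.79 in KI and 0.50 in WT. Socs3, the feedback inhibitor of this pathway, was at 516 against 257 CPM in KI (1.00 [0.86, 1.15]) and 478 against 310 CPM in WT (0.62 [0.47, 0.78]). Osmr, the oncostatin M receptor subunit, was at 154 against 73.5 CPM in KI (1.07 [0.80, 1.35]) and 190 against 133 CPM in WT (0.51 [0.27, 0.75]). The signal transducer Il6st had 0.48 in KI and -0.03 in WT. Socs3 also separated the cells that entered by Adamts9 alone, with 651 CPM in KI and 547 CPM in WT, from those that entered by Inhbb alone, with 379 CPM in KI and 336 CPM in WT. For Ier3 these levels were 2921 CPM in KI and 1970 CPM in WT with Adamts9 alone, and 811 CPM in KI and 727 CPM in WT with Inhbb alone.

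Of the 20 highest genes, 13 had an entry in the RefSeq promoter table (GRCm38.p6, from 250 bases before to 50 after the start), and 2 of these, Apold1 and Sbno2, held the palindrome TTCNNNGAA read by STAT proteins, which 8.30% of the 32851 promoters hold. The Sbno2 promoter with the match, 1 of 3 listed for this gene, is shown because Sbno2 was 2-fold higher in both libraries. It lies at chr10:80102653-80102952 on the minus strand, and the capitals mark the motif.
Sbno2: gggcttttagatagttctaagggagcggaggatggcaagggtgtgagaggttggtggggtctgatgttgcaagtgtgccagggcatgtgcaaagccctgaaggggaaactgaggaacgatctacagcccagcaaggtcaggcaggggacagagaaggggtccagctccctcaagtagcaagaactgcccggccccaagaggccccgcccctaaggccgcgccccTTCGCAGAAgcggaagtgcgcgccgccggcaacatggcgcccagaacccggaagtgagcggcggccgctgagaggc
Of the 13, 7 held a hypoxia core (ACGTG or GCGTG, either strand), which 43.8% of all promoters hold. A match is a string of letters and no evidence of binding.

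Between the libraries, 41 of 4079 genes measured in the Inhbb/Adamts9-positive cells (1.01%) were at least 2-fold higher in KI and 29 (0.711%) at least 2-fold lower. In the comparison cells 23 (0.564%) were higher and 28 (0.686%) lower. All of these genes entered by their level in the Inhbb/Adamts9-positive cells alone. The counts of the cell groups therefore cannot be compared evenly. These counts have no replicate check. The markers outside the rule were lower in KI than in WT Inhbb/Adamts9-positive cells. The log2 ratio of KI over WT was -1.18 [-1.26, -1.11] for Tmem252, -1.18 [-1.34, -1.02] for Ackr3, -1.02 [-1.12, -0.93] for Akap12 and -0.58 [-0.78, -0.38] for Ndrg1. They were lower in KI comparison cells too, with log2 ratios of -0.70 [-0.81, -0.58], -0.78 [-0.99, -0.57], -0.80 [-0.95, -0.65] and -0.41 [-0.67, -0.15] in the same order. The rule applied after thinning chose 160 KI and 347 WT cells anew. In these the ratio stayed past 2-fold for Tmem252 (-1.18) but not for Ackr3 (-0.83) or Akap12 (-0.61). Ndrg1 was then at -0.98. Ncf1, which encodes p47phox, was too low in the Inhbb/Adamts9-positive cells to check the KI label. It had 2 UMIs in KI and 0 in WT, and 0 UMIs there allow up to 1.12 CPM (3 counts). Xist, a transcript of the inactive X chromosome, was detected in 98.1% of KI and 93.4% of WT Inhbb/Adamts9-positive cells. These held 1 and 0 UMIs of Y-linked genes. In the leukocyte gate Xist was in 15.5% of 71 KI and 53.9% of 141 WT cells, with 85 and 2 Y-linked UMIs. Whether the cells of both gates carry the KI label cannot be told from these values.

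The metallothioneins Mt1 and Mt2, small proteins that bind zinc and copper, had the lowest KI over WT ratios relative to those of the comparison cells. Mt1 was at 357 CPM in KI and 1414 CPM in WT Inhbb/Adamts9-positive cells (-1.99 [-2.10, -1.88]), and at 284 CPM in KI and 413 CPM in WT comparison cells (-0.54 [-0.70, -0.38]). Mt2 was at 103 CPM in KI and 342 CPM in WT Inhbb/Adamts9-positive cells (-1.73 [-1.95, -1.52]), and at 106 CPM in KI and 88.6 CPM in WT comparison cells (0.26 [-0.05, 0.58]). Cells of the other endothelial gates also had less of both in KI. Mt1 was at 279 CPM in KI and 822 CPM in WT venous cells, at 222 CPM (30 UMIs) in KI and 1969 CPM (191 UMIs) in WT arterial cells, and at 166 CPM in KI and 406 CPM in WT aerocytes. Mt2 was at 113 CPM in KI and 213 CPM in WT venous cells, at 37.0 CPM (5 UMIs) in KI and 577 CPM (56 UMIs) in WT arterial cells, and at 50.6 CPM in KI and 89.8 CPM in WT aerocytes. The lower level in KI was therefore not limited to the Inhbb/Adamts9-positive capillary cells, as the aerocytes show. The venous gate is less separate, since 35.3% of its KI and 49.5% of its WT cells held an Inhbb and Adamts9 sum of at least 2. The arterial gate held 22 KI and 18 WT cells. Between Inhbb/Adamts9-positive and comparison cells the difference of the log2 ratios was -1.45 [-1.58, -1.31] for Mt1 and -1.99 [-2.24, -1.73] for Mt2. Without the 5 highest cells of each group it was -1.27 for Mt1 and -1.59 for Mt2, and after thinning it was -1.06 and -1.32. By detection at 2000 UMIs, both genes were lower in KI in both cell groups. Mt1 was detected in 26.5% of KI and 43.0% of WT Inhbb/Adamts9-positive cells, and in 16.7% and 26.6% of comparison cells. For Mt2 these shares were 12.6% and 23.8%, and 5.19% and 10.4%.

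Within each library the metallothioneins were concentrated in the cells with the highest Inhbb and Adamts9 sums. Mt1 was at 2736 CPM in WT cells with a sum of 5 or more, 846 CPM at 3 to 4, 618 CPM at 2, 397 CPM at 1 and 413 CPM at 0. In KI it was at 744 CPM with a sum of 5 or more, 256 CPM at 3 to 4, 202 CPM at 2, 186 CPM at 1 and 284 CPM at 0. The order in the upper classes was shared, at a lower level in KI. Mt1 was more abundant in the fibroblast gate, at 7992 CPM in KI and 15438 CPM in WT, and the fibroblast markers summed to 130 CPM in KI and 95.5 CPM in WT Inhbb/Adamts9-positive cells, and 153 and 113 CPM in comparison cells. The gate limited the collagen genes Col1a2 and Col3a1 in all of these cells, and the part of fibroblast RNA in the Mt1 levels was not tested. Of the 5 measured genes for metallothioneins and zinc transport, these 2 were at least 2-fold lower in KI, and the zinc exporter Slc30a1 had a log2 ratio of 0.24.

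The promoters of Mt1 and Mt2 are shown because both genes were among the 12 lowest in KI over WT. They are neighbours on chromosome 8, with Mt2 at chr8:94172664-94173568 and Mt1 at chr8:94179082-94180327, both on the plus strand of GRCm38. The sequences are from RefSeq (GRCm38.p6), chr8:94178839-94179138 and chr8:94172368-94172667. Capitals mark the string TGCNCNC on either strand, a looser form of the metal response element core TGCRCNC, where R is A or G.
Mt1: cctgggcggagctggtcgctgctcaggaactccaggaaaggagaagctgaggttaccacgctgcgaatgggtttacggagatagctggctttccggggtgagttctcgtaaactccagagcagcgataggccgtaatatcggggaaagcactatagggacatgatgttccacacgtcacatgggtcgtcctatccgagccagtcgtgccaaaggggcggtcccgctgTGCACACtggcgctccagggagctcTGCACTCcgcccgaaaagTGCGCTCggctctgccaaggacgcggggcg
Mt2: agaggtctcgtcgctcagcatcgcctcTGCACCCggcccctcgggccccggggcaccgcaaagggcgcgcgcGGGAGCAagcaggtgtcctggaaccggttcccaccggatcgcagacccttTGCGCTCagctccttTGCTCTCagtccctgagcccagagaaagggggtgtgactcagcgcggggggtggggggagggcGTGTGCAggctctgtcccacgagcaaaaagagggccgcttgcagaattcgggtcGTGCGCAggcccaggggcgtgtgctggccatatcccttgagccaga
The looser string was found 3 times in the Mt1 and 6 times in the Mt2 promoter. The Mt2 matches TGCTCTC and GGGAGCA, the latter read as TGCTCCC on the other strand, hold T where the core asks for A or G. Across all promoters searched, 51.0% held at least 1 match of the looser string, 7.10% at least 3 and 0.225% at least 6. The share with TGCRCNC was not counted. Of the 13 highest genes with a promoter entry, 8 held at least 1.

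Of the 12 genes lowest in KI Inhbb/Adamts9-positive cells, all but Mt2 and Hmox1 were also lower by CPM in KI comparison cells. By detection in thinned cells Mt2 was lower there too, at 5.19% of KI and 10.4% of WT comparison cells. Cyp26b1, which degrades retinoic acid, was at 25.03 CPM in KI and 121 CPM in WT (-2.26 [-2.71, -1.86]), with -3.09 [-3.63, -2.61] in the comparison cells. Cebpb, a transcription factor of inflammatory and stress responses, was at 175 CPM in KI and 405 CPM in WT (-1.21 [-1.38, -1.04]), with -1.32 [-1.55, -1.09] in the comparison cells. After thinning Cebpb was at -0.88 in the Inhbb/Adamts9-positive cells, short of 2-fold. Nckap5 had -1.68 in the Inhbb/Adamts9-positive and -1.52 in the comparison cells. Irak2, a kinase-like adaptor of interleukin-1 and Toll-like receptor signalling, had -1.22 [-1.59, -0.87] and -0.57 [-0.95, -0.20]. Hmox1 had -1.27 [-1.56, -0.99] in the Inhbb/Adamts9-positive and 0.03 [-0.54, 0.63] in the comparison cells, with the few cells named above. Other endothelial gates differed for Hmox1. It was higher in KI aerocytes, at 118 CPM against 86.9 CPM in WT, and lower in KI venous cells, at 29.9 CPM against 47.2 CPM. Arterial cells had 12 UMIs in KI and 8 in WT. Fam102a, Fbxw10, Arhgap28, Tbc1d8 and Lmcd1 completed the 12 lowest. With a mitochondrial limit of 5%, Hmox1 was at -0.85 and Lmcd1 at -0.68 in the Inhbb/Adamts9-positive cells.

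Of 16 measured genes of the type I interferon list, 3 (Ifit1, Oasl2 and Ifi203) were at least 2-fold higher in KI than in WT Inhbb/Adamts9-positive cells, beside 41 of 4079 genes in all (1.01%). The other 13 did not reach 2-fold, 0 were 2-fold lower, and the median log2 ratio was 0.63 there and 0.41 in the comparison cells, beside 0.00 for all genes in both. Oasl2, a protein of the antiviral response, was at 140 CPM in KI and 44.2 CPM in WT (1.66 [1.35, 1.98]), and the comparison cells gave 1.68 [1.30, 2.09]. Ifit1 was at 103 CPM in KI and 31.8 CPM in WT (1.69 [1.33, 2.07]), with 1.09 [0.72, 1.47] in the comparison cells. After thinning Ifit1 was at 0.88 in the Inhbb/Adamts9-positive cells, short of 2-fold. Between Inhbb/Adamts9-positive and comparison cells of the same library this list had medians of 0.03 in KI and 0.04 in WT, close to those of all genes. Of 15 interferon gamma genes measured in KI over WT, 0 were 2-fold higher or lower, with a median of 0.32 in both cell groups.

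Other genes among the 12 highest in KI were Ager, Ccdc28b, Sult1a1, Serpinb6b, Plxna1, Dusp23, Ctdspl and Rasgrp2. After thinning, Ccdc28b was at 0.99 and Serpinb6b at 0.95, just under 2-fold. Sult1a1, a sulfotransferase, was at 123 CPM in KI and 42.0 CPM in WT Inhbb/Adamts9-positive cells (1.55 [1.23, 1.88]), with 1.08 in the comparison cells, and Plxna1, a semaphorin receptor, had 1.44 and 1.26. Ager, a marker of alveolar type 1 epithelium, was at 267 CPM in KI and 82.1 CPM in WT, but 5 cells held 75.1% of its UMIs in KI and 68.0% in WT. The 9 alveolar type 1 markers summed to 1232 CPM in KI and 769 CPM in WT Inhbb/Adamts9-positive cells, and 818 CPM in KI and 908 CPM in WT comparison cells, with 0 of them at 0 in any of these groups; their part in the Ager value was not tested.

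**Figure D4:**
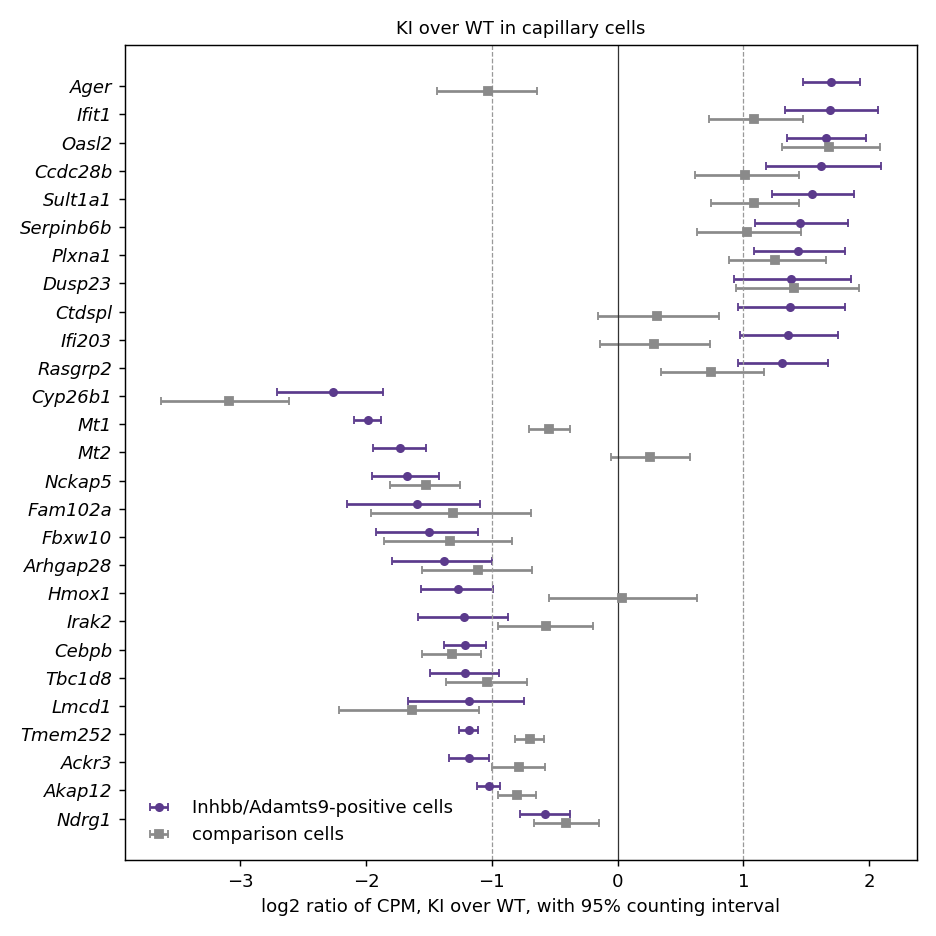
Log2 ratio of CPM in KI over WT (horizontal axis) in Inhbb/Adamts9-positive cells (violet circles, upper) and in comparison cells (grey squares, lower), with 95% counting intervals, for 11 of the 12 highest genes, the 12 lowest genes and the 4 markers not used in the choice. Dashed lines mark 2-fold. Mt1 (-1.99 and -0.54) and Mt2 (-1.73 and 0.26) are far apart between the cell groups, while Oasl2 (1.66 and 1.68) and Cebpb (-1.21 and -1.32) are not.

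The difference between the libraries departed from that of the comparison cells by at least 2-fold, upward for 14 of 4079 genes (0.343%) and downward for 5 (0.123%). These genes, too, entered by their level in the Inhbb/Adamts9-positive cells alone. The 5 lowest were Mt2, Mt1, Hmox1, Pgm1 (-1.01 [-1.38, -0.64]) and Unc119b (-1.01 [-1.44, -0.58]). Among the 5 highest were Ager (2.73 [2.42, 3.03]), Scd2 (1.90 [1.48, 2.32]), the stress-response gene Gadd45b (1.88 [1.60, 2.15]) and the chaperone gene Dnajb1 (1.69 [1.46, 1.92]). The values for Ager and Scd2 depended on the processing. For Ager the difference was 0.0046 after thinning and 0.96 without the barcodes that Scrublet marked as likely doublets. For Scd2 it was 0.80 after thinning, 0.82 without those barcodes, 0.70 with a mitochondrial limit of 5% and 0.60 without the 5 highest cells. After thinning Gadd45b was at 1.00, just under 2-fold, Pgm1 at -0.33 and Unc119b at 0.13, and without its 5 highest cells Dnajb1 was at 0.72. Gadd45b was at 200 CPM in KI and 92.9 CPM in WT Inhbb/Adamts9-positive cells, and at 64.0 CPM in KI and 109 CPM in WT comparison cells. Dnajb1 was at 141 CPM in KI and 98.9 CPM in WT Inhbb/Adamts9-positive cells, and at 106 CPM in KI and 240 CPM in WT comparison cells. The highest Ier3 level by CPM was likewise in KI, at 4639 CPM in KI and 1678 CPM in WT cells with a sum of 5 or more. By detection in thinned cells Ier3 was lower in KI, at 47.8% of KI and 64.0% of WT Inhbb/Adamts9-positive cells.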

How the data were processed

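The deposited files hold raw UMI counts per gene and barcode, 1 matrix for each library, per the file headers and the whole-number values; the labels name the 10x Chromium V3 kit, which tags transcripts near their 3' end. Upstream tools were Cell Ranger 2.0, R 3.5.3 and Seurat 2.3.4, per the submitters' processing notes, and software version 3.0.2 stands in the matrix header. No deposited barcode had fewer than 500 UMIs. The libraries totalled 43445797 UMIs in KI and 43376713 in WT. The cells and gene lists were chosen with earlier results of these data known.

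UMIs were summed over the cells of a group and scaled to CPM. Log2 ratios carry 0.5 added counts and exact conditional binomial 95% intervals, levels carry Poisson intervals and shares carry exact Clopper-Pearson intervals (scipy 1.17.1); differences of log2 ratios carry normal-approximation intervals. Intervals and floors cover counting error only. Genes entered the comparison with comparison cells at 50 CPM or more in either cell group of a library and 20 UMIs in all. They entered the KI over WT comparison at 50 CPM and 10% detection in the Inhbb/Adamts9-positive cells of either library. The text names the 20 highest and 10 lowest genes of the first, the 12 highest and lowest of the KI over WT comparison, 5 each of the difference, and list genes past 2-fold or with a stated role, except 1 item that is not reported here. Rule genes, mitochondrial, ribosomal and sex-linked marker genes, and genes over 20 times higher in another cell class were not ranked. The last limit was applied only in the library where the Inhbb/Adamts9-positive cells had the higher level. In the other library Mt1, Mt2 and Ager were past it. Mt1 was at 7992 CPM and Mt2 at 2595 CPM in the KI fibroblast gate, and Ager at 3721 CPM in the WT epithelial gate. Gates of other cell types used sums of the same genes. Scrublet (scanpy 1.11.5) scored doublets; its automatic threshold marked 0 barcodes, so the expected rate of 0.8% per 1000 barcodes was used in an alternative, and it marked 21 KI and 25 WT Inhbb/Adamts9-positive cells, which were kept. The calculation was tested on simulated counts. Gene positions are from GENCODE M21 on GRCm38.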

Additional observations from a re-analysis of the deposited data

Results flagged for a closer look

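For 6 genes the log2 ratio of KI over WT had opposite signs in the Inhbb/Adamts9-positive and the comparison cells, with both counting intervals clear of 0. The differences were not tested, since each group is 1 library. Ager had 1.70 in the Inhbb/Adamts9-positive and -1.03 in the comparison cells. Scd2, a fatty acid desaturase, had 1.17 and -0.73. Gadd45b had 1.10 and -0.77, and Dnajb1 had 0.51 and -1.18. Prdx6, a peroxidase that reduces phospholipid hydroperoxides, had 0.53 and -0.54, and the calcium-binding S100a6 had 0.56 and -0.72. In KI Inhbb/Adamts9-positive cells 5 cells held 75.1% of the UMIs of Ager, 53.6% of Scd2 and 38.3% of Prdx6.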

How the results depend on the processing

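The KI share stayed below the WT share under each alternative tried; its log2 ratio was -0.69 with at least 3 UMIs and -0.99 with the rule applied after thinning, beside -0.51. In the order higher and lower in Inhbb/Adamts9-positive cells (8 and 0), higher and lower in KI (41 and 29), and difference of ratios upward and downward (14 and 5), counts moved by over 1.5 times as follows. After thinning to 2000 UMIs, which leaves fewer cells and UMIs, they were 21, 3, 141, 95, 85 and 57. With no filter on low values, which lets in more genes, they were 46, 44, 418, 172, 490 and 238. With a threshold of 3 UMIs, 19 genes were higher in Inhbb/Adamts9-positive cells and 36 and 8 had a difference up and down. With a mitochondrial limit of 5%, 2 were lower in Inhbb/Adamts9-positive cells, and 24 and 11 had a difference up and down. With all other gated cells for comparison, 5 were higher and 8 had a difference upward. An alternative chosen after seeing the data left out each gene's 5 highest cells, and 7 genes then had a difference upward. Of 1012 single-gene values, 855 moved by less than their counting interval, 154 moved further and 3 turned sign, all 3 after thinning: Hmox1 in KI cells against comparison cells (-0.40), Ager in KI over WT (-0.33) and the difference for Unc119b (0.13); the cause was not tested. No paired analysis was possible because each group holds 1 library. Depth limits genes under about 50 CPM.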

Other observations

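In KI over WT Inhbb/Adamts9-positive cells, 6 of 16 measured endoplasmic reticulum stress genes were lower by at least 0.5 on the log2 scale, beside 206 of 4079 genes in all, and 0 were higher by that much, beside 335 of 4079. The median of the list was -0.33 there and -0.30 in the comparison cells, beside 0.00 for all genes in both. The chaperone Hspa5 was at 421 CPM in KI and 723 CPM in WT Inhbb/Adamts9-positive cells (-0.78 [-0.89, -0.67]), and at 326 CPM in KI and 684 CPM in WT comparison cells (-1.07 [-1.21, -0.93]). Pdia6, a disulfide isomerase, had log2 ratios of -0.93 and -0.67, and Calr, a calcium-binding chaperone, had -0.67 and -0.50. Of 11 measured Notch genes, 2 were at least 2-fold higher in KI Inhbb/Adamts9-positive cells, beside 41 of 4079 genes in all (1.01%), and 0 were 2-fold lower. Both encode fringe enzymes, which add sugars to Notch: Lfng had 1.25 and Mfng 1.29, with 0.35 and 0.77 in the comparison cells. The other 9 did not reach 2-fold and lay between -0.50 (Hes1, a Notch target) and 0.90 (the ligand Dll4). Timp3, an inhibitor of matrix metalloproteases, was higher in Inhbb/Adamts9-positive than comparison cells, at 2598 against 1845 CPM in KI (0.49 [0.44, 0.55]) and 2230 against 1784 CPM in WT (0.32 [0.26, 0.39]).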
